A study of Arabidopsis thaliana with 44 samples.

Results

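Inflorescence RNA of Arabidopsis thaliana was set against leaf RNA on the 4 Agilent oligonucleotide microarrays that carried only these tissues, out of 44 samples in the series. They were taken by their labels. On each of these arrays, called self-self arrays in the study, the same RNA sample was labeled with both Cy3 and Cy5 and hybridized against itself. Inflorescence, made up of immature buds of mixed stages, had 2 arrays, and untreated leaf from 21-day-old plants had 2 arrays. The study was designed to compare Affymetrix and Agilent arrays and tag sequencing on shared RNA samples, and it ran 12 Agilent arrays in all. The technical spread was estimated over the 8 single-tissue arrays, which also held 2 of root and 2 of callus. By their labels the root was untreated and of 21 days, and the callus was actively growing. The 2 arrays of a tissue are technical replicates of 1 RNA sample, with no separate plants behind them, so the standard errors and p-values below measure technical spread only. Whole organs were extracted, and each holds many cell types. The age and growth of the plants that gave the buds were not tied to those of the leaf plants in the labels.

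Flower buds are built by homeotic transcription factors, most of them MADS-box proteins, which give each whorl of organs its identity. Inside the anther, a nurse layer called the tapetum makes the wall and coat of the pollen grains and then dies, and it uses a set of genes that other organs hardly use. Leaf mesophyll is devoted to photosynthesis, and its messenger RNA is rich in transcripts for the light-harvesting antenna, the 2 photosystems and the carbon-fixing Calvin cycle.

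The arrays held 22575 features, of which 1075 were controls and 21500 were gene probes, 1 probe for each gene. The level of a probe was the mean of its green and red processed signals, divided by the summed gene-probe signal of its array and multiplied by 1e+06 (normalized expression units, NEU). Between 99.2% and 99.5% of the gene probes were well above background in each channel of the 4 arrays, and the green and red log2 signals of each array correlated at 0.995 or 0.996. Median raw signal over background was between 12.9 and 27.5. The brightest spots saturated, at 1835 and 1279.99 NEU in inflorescence and 2017 and 2095 NEU in leaf, so differences among them are limited by the ceiling of the scanner. The technical replicates differed by a median of 0.16 on the log2 scale in inflorescence and 0.32 in leaf, against a median difference of 0.68 between the tissues. Pearson's r across probes was 0.981 for the inflorescence pair and 0.951 for the leaf pair, against 0.827 to 0.839 between the tissues, where genes are not independent replicates.

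Probes without outlier flags on any of the 8 arrays, 19672 in number, were compared between the tissues with limma, and the log2 differences below are inflorescence minus leaf, ± their standard errors. At an adjusted p under 0.05, 7871 probes (40.0%) were called, 4384 (22.3%) higher and 3487 (17.7%) lower in inflorescence. These shares are the background for the counts of calls in the gene lists below. A call with a difference over 2-fold was reached by 5050 probes (25.7%), 2602 (13.2%) higher and 2448 (12.4%) lower. The counts were close to even at 2-fold and drew apart with the size of the change. Over 16-fold, 154 probes were higher and 59 lower, and over 64-fold 35 were higher and 6 lower. Both inflorescence arrays lay outside the range of both leaf arrays for 14770 probes (75.1%). Of the probes over 16-fold higher, 10.4% had an array description without a known function. The share was 23.7% of those over 16-fold lower and 26.4% of all probes tested. Since whole tissues were measured, fewer cells of a type and less RNA per cell cannot be told apart in any of these differences.

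**Figure D1:**
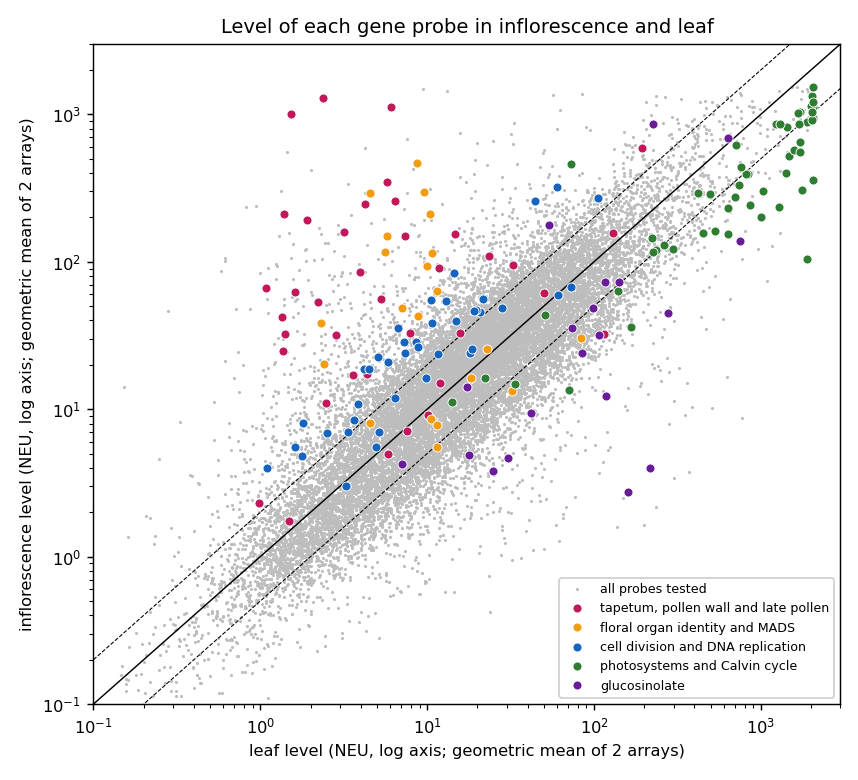
Level of each tested probe in inflorescence (vertical axis, geometric mean of 2 arrays, NEU, log scale) against its level in leaf (horizontal axis, NEU, log scale), with members of 5 gene groups in color and all other tested probes in gray. The solid line marks equal levels and the dashed lines a 2-fold difference. Genes of the tapetum and pollen lie up to 655-fold above the solid line, and photosystem and Calvin cycle genes lie at the bright end, mostly below it.

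The labels were checked on defining genes of both organs. AP1, AP3, PI and AG, the homeotic genes of the flower, were all over 16-fold higher in inflorescence, while LHCB1.1, an antenna protein of photosystem II, was at 127 and 84.6 NEU in inflorescence, against 1757 and 2024 NEU in leaf. The defining flower gene LFY went the other way, as described below. Root markers were not uniformly low in leaf: PYK10, an abundant beta-glucosidase of root, was at 2.19 and 2.16 NEU in inflorescence, against 209 and 268 NEU in leaf, and at 946 and 859 NEU in root.

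The 12 largest increases among called probes that were well above background and unsaturated in every channel of the 4 arrays included 5 genes known from the anther. ATA27, a beta-glucosidase of the tapetum, was at 577 and 534 NEU in inflorescence, against 1.92 and 1.08 NEU in leaf, a 386-fold difference (8.59 ± 0.31 on the log2 scale, adjusted p = 3.79e-05). A pair of extracellular lipases of the pollen coat followed, EXL4 at 250.4 and 219 NEU in inflorescence, against 0.557 and 1.22 NEU in leaf, and EXL6 at 278 and 328 NEU in inflorescence, against 2.21 and 0.809 NEU in leaf. The tapetal protein A6 (AT4G14080, MEE48 in the gene table), a relative of the glucanases that dissolve callose, was at 204 and 221 NEU in inflorescence, against 1.47 and 1.298 NEU in leaf (154-fold). TSM1, a methyltransferase of the tapetum that acts on spermidine conjugates, was 101-fold higher, at 201 and 182 NEU in inflorescence, against 1.89 and 1.91 NEU in leaf. Every one of these was within a few NEU of 0 on both leaf arrays, so the size of the fold rests on the faint leaf signal.

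The 12 highest probes also held genes known only by the protein class in the array's description. AT1G06260, a cysteine proteinase, was at 524 and 675 NEU in inflorescence, against 6.7003 and 2.72 NEU in leaf, and AT4G04460, an aspartic protease, at 766 and 602 NEU in inflorescence, against 7.597 and 7.52 NEU in leaf. AT2G03850, described as cold-regulated, was at 408 and 437 NEU in inflorescence, against 1.27 and 3.19 NEU in leaf and was the only one of the 12 with callus above 30 NEU, at 32.8 and 45.3 NEU. AT1G47980, described as related to desiccation, was at 326 and 349 NEU in inflorescence, against 1.66 and 6.78 NEU in leaf. The other 3, AT4G37900, AT3G28780 and AT3G28750, were 116-fold, 106-fold and 84.3-fold higher. As the 12 were taken from called probes, their calls are no separate result. Limma gave them adjusted p-values from 1.73e-05 to 0.00106.

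Of the 25 tested genes on the tapetum and pollen wall list, 19 were called higher and 1 lower in inflorescence, with a median difference of 4.53, against 0.00 over all probes. The oleosin-type pollen coat proteins showed the widest range. GRP19 was at 1068 and 945 NEU in inflorescence, against 1.15 and 2.04 NEU in leaf (655-fold) with 1 inflorescence channel saturated, and GRP17, which was saturated on both inflorescence arrays, was at least 538-fold higher, at 1438 and 1144 NEU in inflorescence, against 2.103 and 2.701 NEU in leaf (adjusted p = 1.73e-05). GRP20, GRP16 and GRP18 were also called higher, with log2 differences of 5.34, 4.53 and 2.06, and GRP18 missed the threshold without either inflorescence array (adjusted p = 0.0531 to 0.0595). Their cluster neighbor GRP14 was the list's only gene called lower, at 25.9 and 40.2 NEU in inflorescence, against 91.4 and 144 NEU in leaf (-1.83 ± 0.31, adjusted p = 0.00487), and it was also high in root, at 123 and 157 NEU. ATA20, another tapetal transcript, was saturated on both inflorescence arrays and at least 185-fold higher, at 1243 and 1002 NEU in inflorescence, against 5.02 and 7.26 NEU in leaf (adjusted p = 2.71e-05).

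Enzymes that make sporopollenin, the polymer of the outer pollen wall, were called higher in each of the 6 cases tested. The fatty acid hydroxylases CYP703A2 and CYP704B1 were at 61.5 and 62.6 NEU in inflorescence, against 1.72 and 1.51 NEU in leaf, and at 64.4 and 67.8 NEU in inflorescence, against 1.12 and 1.04 NEU in leaf, which is 38.5-fold and 61.3-fold higher. MS2, a fatty acyl reductase, was 50.7-fold higher, the polyketide synthase LAP6 20.4-fold, the acyl-CoA synthetase ACOS5 10.6-fold and the reductase DRL1 2.94-fold. The second polyketide synthase, LAP5, had an outlier spot and was left out of the tests, at 273 and 204 NEU in inflorescence, against 89.6 and 90.4 NEU in leaf. The transcription factor AMS, which controls many tapetal genes, was at 42.3 and 41.7 NEU in inflorescence, against 1.49 and 1.23 NEU in leaf (4.96 ± 0.88, adjusted p = 0.00593). Its fellow regulators DYT1, TDF1 and MYB80 were not called, with overlapping arrays at or under 12 NEU in both tissues. The call of ACOS5 was lost without inflorescence replicate 2 (adjusted p = 0.0527). Without inflorescence replicate 1 or 2 the list's count of higher genes was 17 and 16, and without leaf replicate 1 or 2 it was 19 and 19.

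Genes of mature pollen were measured in the same buds. Of 13 tested, 9 were called higher and the other 4 were not called, with a median of 2.14. VGD1, a pectin methylesterase of the pollen tube, was at 232 and 264 NEU in inflorescence, against 4.24 and 4.198 NEU in leaf (58.7-fold), and its neighbor VGDH1 at 85.6 and 84.6 NEU in inflorescence, against 3.57 and 4.36 NEU in leaf (21.5-fold). PRF5, a pollen profilin, was 10.5-fold and RALF4, a peptide signal of the pollen tube, 11.1-fold higher. The pollen actins were unequal: ACT12 was at 10.95 and 10.9 NEU in inflorescence, against 1.71 and 3.63 NEU in leaf, and ACT3 at 645 and 537 NEU in inflorescence, against 221 and 172 NEU in leaf, both called higher, while ACT11, ACT1 and ACT4 were not called (0.28, 0.32 and 1.24). ACT3 and ACT1 are close copies of each other, and how far their probes tell them apart is not known here. Without inflorescence replicate 1 or 2 the list had 6 higher calls, and the call of ACT12 was lost without either inflorescence array (adjusted p = 0.0584 to 0.0663).

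**Figure D2:**
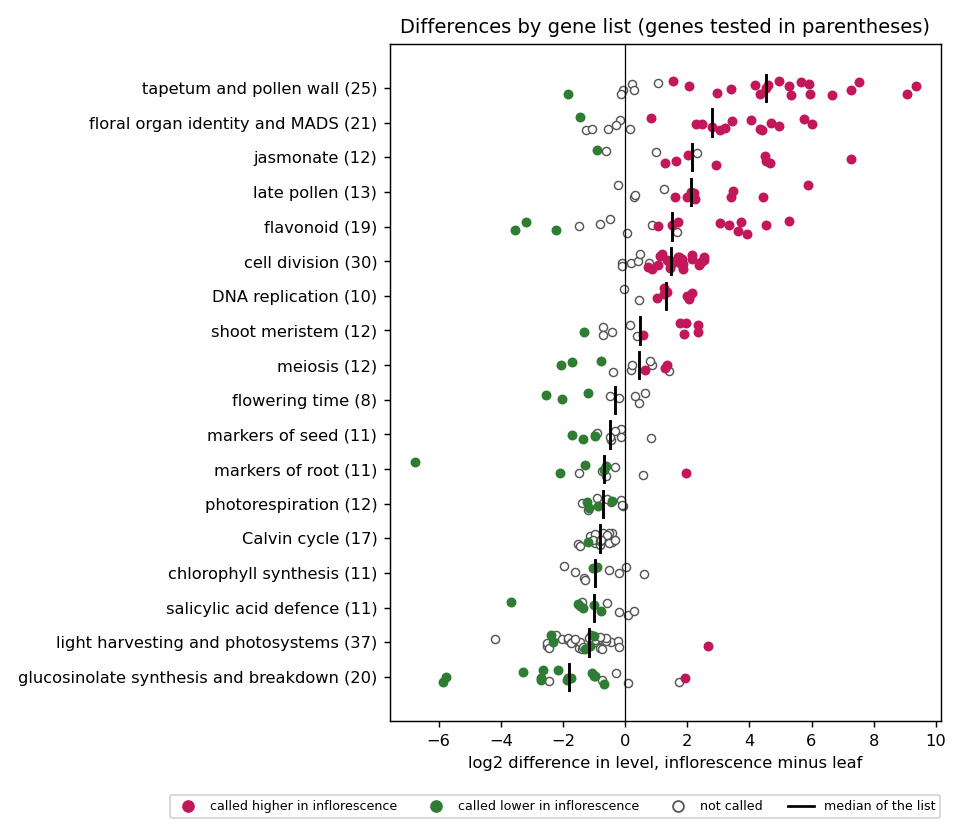
Log2 difference inflorescence minus leaf for each tested member of the gene lists fixed by locus (points), with lists down the vertical axis and their tested genes in parentheses, filled for called members, and with a bar at each list's median. Tapetum, floral and late pollen lists sit to the right of 0, and glucosinolate and photosynthesis lists to the left.

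By median difference, the homeotic genes of the flower stood between the tapetum list and the late pollen list. Of 21 tested genes of floral organ identity and related MADS-box genes, 14 were called higher and 1 lower, with a median of 2.79. SEP3, the cofactor that joins floral homeotic proteins into complexes, had the largest difference, at 289 and 297 NEU in inflorescence, against 4.45 and 4.699 NEU in leaf (64.03-fold, 6.00 ± 0.27, adjusted p = 6.57e-05). SEP2 was at 115 and 119 NEU in inflorescence, against 5.4001 and 5.76 NEU in leaf, and SEP1 at 125 and 107 NEU in inflorescence, against 9.99 and 11.3 NEU in leaf, which is 20.99-fold and 10.9-fold. SEP4 was not called, at 15.5 and 17.3 NEU in inflorescence, against 19.7 and 16.8 NEU in leaf, with overlapping arrays (-0.15 ± 0.18, adjusted p = 0.542).

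The petal and stamen genes PI and AP3 were at 518 and 429 NEU in inflorescence, against 9.42 and 8.11 NEU in leaf, and at 194 and 227 NEU in inflorescence, against 10.5 and 10.2 NEU in leaf. PI was also high in callus, at 267 and 208 NEU, where AP3 was at 4.43 and 5.18 NEU. AP1, which specifies floral meristems and sepals, was at 299 and 296 NEU in inflorescence, against 9.77 and 9.501 NEU in leaf (30.9-fold). AG, the gene of stamens and carpels, was at 38.6 and 38.1 NEU in inflorescence, against 1.86 and 2.85 NEU in leaf (16.7-fold). The AP1 relatives CAL and FUL were at 67.5 and 59.8 NEU in inflorescence, against 9.95 and 13.2 NEU in leaf, and at 164 and 135 NEU in inflorescence, against 5.498 and 5.94 NEU in leaf. FUL is named AGL8 in the gene table. None of these 6 genes had overlapping arrays, which was also so for 75.1% of all probes. AP1 missed the threshold without either inflorescence array (adjusted p = 0.0541 to 0.0618).

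Carpel and ovule genes were also higher. STK, the ovule identity gene, was at 90.1 and 97.6 NEU in inflorescence, against 6.83 and 14.7 NEU in leaf (9.36-fold). The fruit valve-margin genes SHP1 and SHP2 were at 38.9 and 46.5 NEU in inflorescence, against 13.7 and 5.69 NEU in leaf, and at 19.5 and 21.2 NEU in inflorescence, against 3.09 and 1.899 NEU in leaf. AGL6 was 6.91-fold higher. CRC, a gene of carpels and nectaries, was at 8.32 and 7.91 NEU in inflorescence, against 4.37 and 4.77 NEU in leaf, the smallest called increase of the list (0.83 ± 0.19, adjusted p = 0.0156). The call of SHP1 was lost without either inflorescence array or leaf replicate 2 (adjusted p = 0.113 to 0.173). The call of SHP2 was lost without either inflorescence array or leaf replicate 2 (adjusted p = 0.0842 to 0.104), and that of CRC without either inflorescence array or leaf replicate 1 (adjusted p = 0.0518 to 0.0912). SPL, needed to start spore-forming cells, was at 24.8 and 24.9 NEU in inflorescence, against 6.12 and 4.204 NEU in leaf and was left out of the tests for an outlier spot.

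LFY, the regulator that gives floral identity to young meristems, was lower in inflorescence, at 31.9 and 29.3 NEU in inflorescence, against 73.3 and 95.6 NEU in leaf (-1.45 ± 0.23, adjusted p = 0.0042). It stood at 75.7 and 107 NEU in root and at 22.5 and 28.1 NEU in callus, so leaf and root were alike and above the other tissues. Its coregulator UFO had the same order of tissues, at 14.4 and 12.3 NEU in inflorescence, against 27.3 and 38.1 NEU in leaf, and was not called (adjusted p = 0.223). Its callus arrays were uneven, at 11.2 and 1.88 NEU, and on the 4 inflorescence and leaf arrays alone it was called lower (adjusted p = 0.0113). AP2, a gene of the outer whorls that is not a MADS-box gene, was at 23.98 and 27.7 NEU in inflorescence, against 25.9 and 20.3 NEU in leaf (0.17 ± 0.17) and was not called. SUP, SPT and TT16 were not called either, with differences of -0.30, -0.57 and -1.06. Without any 1 of the 4 arrays, between 10 and 13 of the 21 genes were called higher.

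**Figure D3:**
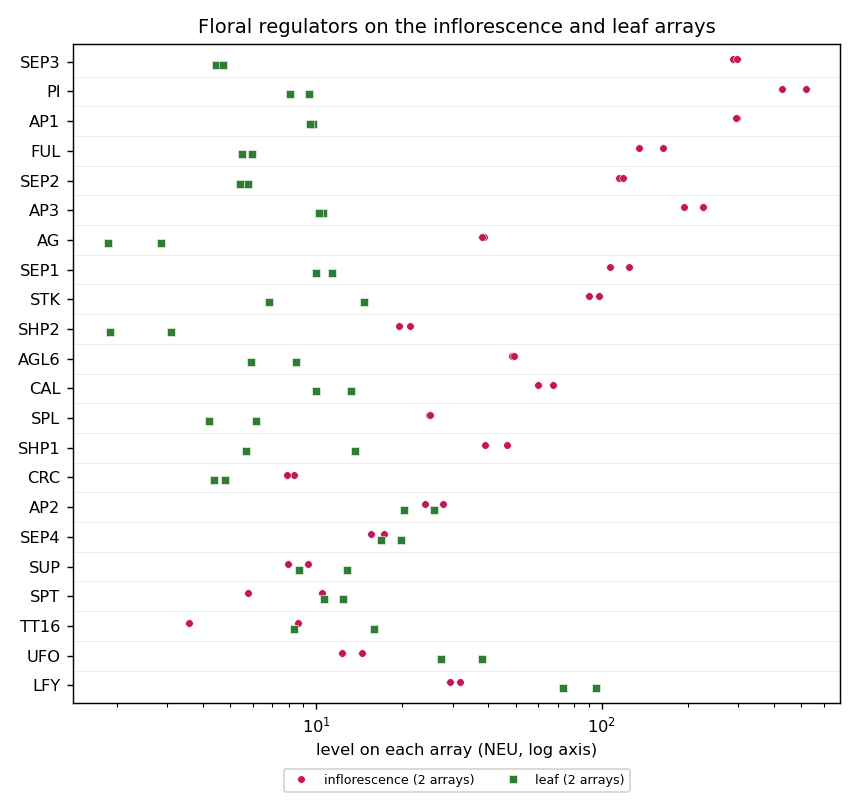
Levels (horizontal axis, NEU, log scale) of the floral regulators, listed down the vertical axis, on each of the 2 inflorescence arrays and 2 leaf arrays. SEP3, PI, AP1 and AP3 lie between 194 and 518 NEU in inflorescence and at 11 NEU or less in leaf, and LFY is the gene called in the opposite direction.

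Among genes of flowering time, 3 of 8 tested (37.5%) were called lower in inflorescence, against 17.7% over all probes. The other 5 were not called. After quantile normalization 2 of the 8 (25%) were called lower. AGL24, a promoter of flowering that floral genes repress in the young flower, was at 8.25 and 9.34 NEU in inflorescence, against 53.3 and 50.3 NEU in leaf (5.897-fold lower in inflorescence). SVP, its close relative and a repressor of flowering, was at 1.56 and 1.42 NEU in inflorescence, against 5.17 and 7.06 NEU in leaf. FD, the partner of the flowering signal FT, was under 3 NEU on all 4 arrays, at 0.946 and 0.9699 NEU in inflorescence, against 2.63 and 1.84 NEU in leaf, and its call was lost without any 1 of the 4 arrays (adjusted p = 0.0565 to 0.155). The floral repressor FLC and the integrator SOC1 (AGL20) were not called, with differences of 0.45 and 0.65.

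The knotted-like homeobox genes of the shoot meristem were all called higher. STM, which keeps meristem cells undifferentiated, was at 52.4 and 63.9 NEU in inflorescence, against 14.5 and 15.1 NEU in leaf, KNAT1 at 43.002 and 44.6 NEU in inflorescence, against 8.61 and 8.79 NEU in leaf, KNAT2 at 15.99 and 15.98 NEU in inflorescence, against 4.76 and 3.84 NEU in leaf, and KNAT6 at 15.7 and 13.8 NEU in inflorescence, against 3.28 and 2.61 NEU in leaf. ANT, a gene that promotes organ growth, was 3.37-fold higher, at 58.8 and 47.9 NEU in inflorescence, against 13.4 and 18.5 NEU in leaf. WUS, CLV3 and CLV1, which set the size of the stem cell pool, were not called, with differences of 0.40, -0.43 and -0.73. CUC3, a gene of organ boundaries, was called lower, at 95.2 and 93.3 NEU in inflorescence, against 201 and 283 NEU in leaf, and was at 265 and 332 NEU in root. In all, 6 of 12 tested meristem genes were called higher and 1 lower.

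Genes of the dividing cell were higher in inflorescence wherever they were called. Of 30 tested cell division genes, 24 were called higher and the other 6 were not called, with a median of 1.49. KNOLLE, the syntaxin of the cell plate, was at 280.3 and 374 NEU in inflorescence, against 59.9 and 59.5 NEU in leaf (5.42-fold). The D-type cyclin CYCD3;3 was at 258 and 262 NEU in inflorescence, against 46.4 and 42.3 NEU in leaf (5.87-fold), and CDC20.1, an activator of the anaphase-promoting complex, at 80.6 and 86.3 NEU in inflorescence, against 14.3 and 14.6 NEU in leaf (5.77-fold). The mitotic cyclin CYCB1;1 was at 19.5 and 22.3 NEU in inflorescence, against 5.46 and 6.15 NEU in leaf, and the plant-specific mitotic kinase CDKB1;1 at 18.9 and 18.4 NEU in inflorescence, against 3.65 and 4.83 NEU in leaf. The Aurora kinase AUR1 was among those not called, at 45.6 and 51.1 NEU in inflorescence, against 36.9 and 21.3 NEU in leaf. Leaving out single arrays gave between 20 and 23 higher calls.

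DNA replication genes followed, with 8 of 10 tested called higher (median 1.31). The replicative helicase subunits MCM2, MCM3, MCM5 and MCM6 lay between 3.94-fold and 4.43-fold higher. MCM5, as an example, was at 61.1 and 48.2 NEU in inflorescence, against 12.5 and 13.4 NEU in leaf. TSO2, a ribonucleotide reductase subunit, was at 253 and 292 NEU in inflorescence, against 100.2 and 112 NEU in leaf. CDC45 and CDC6 were not called. Of the histones in the array's descriptions, 24 of 38 tested were called higher and 4 lower, with a median of 1.15, and with either inflorescence array left out 2 were called lower. HTA13, an H2A histone, was at 397 and 408 NEU in inflorescence, against 79.7 and 89.1 NEU in leaf, while HIS1-3, a linker histone known for its response to drought, was at 5.41 and 5.66 NEU in inflorescence, against 30.2 and 27.02 NEU in leaf. Many histone genes are close copies of each other, and their probes may share signal.

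Of 12 tested meiosis genes 3 (25%) were called higher and 3 (25%) lower, against 22.3% and 17.7% over all probes. The higher calls numbered 1 without inflorescence replicate 2 and 5 after quantile normalization. DMC1, the meiotic recombinase, was at 24.9 and 24.9 NEU in inflorescence, against 11.98 and 7.84 NEU in leaf (2.57-fold). SPO11-1, which makes the double-strand breaks of meiosis, was lower in inflorescence, at 15.6 and 13.1 NEU in inflorescence, against 40.6 and 54.7 NEU in leaf, and at 61.8 and 61.8 NEU in root. The meiotic cyclin SDS was also lower, at 1.23 and 1.11 NEU in inflorescence, against 4.24 and 5.71 NEU in leaf, as was the A-type cyclin TAM (CYCA1;2), at 7.004 and 7.55 NEU in inflorescence, against 11.3 and 13.6 NEU in leaf. The call of DMC1 was lost without inflorescence replicate 2 (adjusted p = 0.057), and that of TAM without either inflorescence array or leaf replicate 2 (adjusted p = 0.102 to 0.125). Both SPO11-1 and SDS were more than 2-fold higher in leaf and in root than in inflorescence and in callus, the order of tissues seen for LFY.

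Cytosolic ribosomal proteins were called higher far more often than lower, mostly by small amounts. Of 118 tested, 66 were called higher, 1 lower and 51 not called, with a median of 0.66. Inflorescence arrays lay above leaf arrays for 90 and below them for 9, and the other 19 overlapped. Non-overlap in either direction was found for 75.1% of all probes. Without inflorescence replicate 1 or 2 the higher calls were 35 and 31, and on the 2-tissue arrays described below 63 of 121 were higher and 20 lower. RPS28 was at 134 and 118 NEU in inflorescence, against 32.1 and 37.1 NEU in leaf (3.64-fold). The list summed to 31794 and 32302 NEU in inflorescence, against 20535 and 19710.1 NEU in leaf. Of 30 ribosomal proteins of chloroplasts and mitochondria, 6 (20%) were called higher and 3 (10%) lower (median -0.22). Over all probes the shares were 22.3% and 17.7%. AT5G65220, a chloroplast L29 protein, was at 188 and 199 NEU in inflorescence, against 514 and 325 NEU in leaf, a call lost without either inflorescence array (adjusted p = 0.0563 to 0.059), as were the other 2 lower calls. Of 17 tubulins and tubulin-binding proteins, 10 were called higher and 1 lower, a lower call lost without either inflorescence array or leaf replicate 2. TUB3 was at 46.6 and 52.2 NEU in inflorescence, against 11.02 and 11.1 NEU in leaf (4.46-fold).

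Secreted lipid transfer proteins were called in both directions, with the larger factors among those higher in inflorescence. Of 24 tested, 11 were called higher and 9 lower, and 3 lower without inflorescence replicate 2. AT1G66850 was at 1632 and 1279.9 NEU in inflorescence, against 11.8 and 14.7 NEU in leaf, LTP12 at 578 and 699 NEU in inflorescence, against 17.7 and 22.3 NEU in leaf, and LTP6 at 1484 and 1258 NEU in inflorescence, against 83.96 and 85.9 NEU in leaf. The first and the last of these were saturated on both inflorescence arrays, so they were at least 109.5-fold and at least 16.1-fold higher (adjusted p = 2.29e-05 and 5.79e-05), and LTP12 was 31.98-fold higher. LTP5 was lower in inflorescence, at 138 and 133 NEU in inflorescence, against 404 and 422 NEU in leaf, a call lost without inflorescence replicate 2 (adjusted p = 0.061). The sum over the list was 7603 and 6956 NEU in inflorescence, against 1757 and 1742 NEU in leaf.

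Pectin-modifying enzymes, which loosen or stiffen cell walls, were a large family with a median of 0.32. Of 164 tested, 51 (31.1%) were called higher and 30 (18.3%) lower, the lower share being near that over all probes. The pectinesterase AT2G47050 was at 95.2 and 107 NEU in inflorescence, against 0.966 and 0.394 NEU in leaf (164-fold), and the pectate lyase AT3G01270 at 159.7 and 148 NEU in inflorescence, against 2.25 and 3.79 NEU in leaf (52.7-fold). The pectinesterase PMEPCRF was lower, at 17.7 and 17.04 NEU in inflorescence, against 134 and 116 NEU in leaf. Lower calls of these enzymes were 11 without inflorescence replicate 2 and 17 without leaf replicate 2. Expansins, proteins that let walls extend, had 5 higher (17.9%) and 6 lower (21.4%) of 28 tested, near the 22.3% and 17.7% over all probes. EXPB3 was at 54.9 and 54.2 NEU in inflorescence, against 9.47 and 7.75 NEU in leaf, while EXPA4 was at 6.75 and 9.19 NEU in inflorescence, against 22.7 and 36.3 NEU in leaf.

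Jasmonate genes, which act in wounding and in stamen maturation, were mostly higher in inflorescence. Of 12 tested, 8 were called higher and 1 lower, with a median of 2.16. The vegetative storage protein VSP1 was saturated on both inflorescence arrays and at least 156-fold higher, at 1716 and 1279.8 NEU in inflorescence, against 10.3 and 8.79 NEU in leaf (adjusted p = 1.73e-05), and VSP2 was at 483 and 493 NEU in inflorescence, against 23.9 and 15.6 NEU in leaf (25.3-fold). Among biosynthetic enzymes, AOC4 was at 285 and 350.4 NEU in inflorescence, against 42.2 and 40.3 NEU in leaf, OPR3 at 179 and 194 NEU in inflorescence, against 67.8 and 85.6 NEU in leaf, and LOX3 at 46.7 and 60.3 NEU in inflorescence, against 13.1 and 12.96 NEU in leaf. MYB21 and MYB24, factors that act downstream of jasmonate in the stamen, were at 29.7 and 25.8 NEU in inflorescence, against 0.918 and 1.61 NEU in leaf, and at 16.7 and 15.8 NEU in inflorescence, against 0.353 and 1.37 NEU in leaf. DAD1, a lipase that starts jasmonate synthesis in the anther, was the gene called lower, at 4.76 and 4.07 NEU in inflorescence, against 7.43 and 9.27 NEU in leaf, and its call was lost without any 1 of the 4 arrays (adjusted p = 0.0724 to 0.211). LOX2 was at 1418 and 1198 NEU in inflorescence, against 293 and 239 NEU in leaf and was not called (adjusted p = 0.124). It was not called without the root arrays either (adjusted p = 0.0788) and was called on the 4 inflorescence and leaf arrays alone (adjusted p = 0.00146). Its arrays were uneven in root, at 94.4 and 19.3 NEU, and in callus, at 2.61 and 19.7 NEU.

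The flavonoid genes named here differed by branch, and those called lower were all faint. CHS, CHI, F3H, F3′H and FLS1, the steps that lead to flavonols, were all called higher. CHS, the entry enzyme, was at 377 and 370.0 NEU in inflorescence, against 29.8 and 26.4 NEU in leaf (13.3-fold), F3H at 293 and 289.5 NEU in inflorescence, against 8.301 and 6.83 NEU in leaf (38.7-fold), and FLS1 at 686 and 787 NEU in inflorescence, against 30.5 and 33.5 NEU in leaf (22.99-fold). Their regulators MYB12, MYB111 and MYB11 were called higher too, by 15.2-fold, 12.3-fold and 2.82-fold. DFR, LDOX and BAN, the steps toward anthocyanins and tannins, were called lower. DFR was at 0.766 and 0.449 NEU in inflorescence, against 6.79 and 7.05 NEU in leaf, LDOX at 0.315 and 0.432 NEU in inflorescence, against 3.51 and 3.31 NEU in leaf, and BAN at 0.3604 and 0.5101 NEU in inflorescence, against 1.87 and 2.197 NEU in leaf, all at the faint end of the arrays. LDOX and BAN were not well above background in every channel of the inflorescence arrays. The call of BAN was lost without any 1 of the 4 arrays (adjusted p = 0.0661 to 0.115), that of CHS without either inflorescence array (adjusted p = 0.0535 to 0.0604), and that of MYB11 without either inflorescence array (adjusted p = 0.0533 to 0.074). The list had 10 higher and 3 lower calls among 19 tested. Of the 3 lower, 2 had leaf and root more than 2-fold above inflorescence and callus. In the fit of probes well above background on all 8 arrays, 7 of 11 were called higher and 0 lower. Without inflorescence replicate 1 or 2 the higher calls were 6 and 5.

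Photosynthesis genes had higher summed levels in leaf, while few of them were called. The 37 tested light-harvesting and photosystem genes had a median of -1.16, and 35 of them had both inflorescence arrays below both leaf arrays. Non-overlap in either direction was found for 75.1% of all probes. Over all listed members on the array, the summed level was 19086 and 17752 NEU in inflorescence, against 45469 and 47105 NEU in leaf. Of the 37, 5 were called lower and 1 higher, and with any 1 of the 4 arrays left out 2 were called lower. The shared spread of the 8 arrays was widened here by the root pair, whose sums were 14675 and 1157 NEU, against 433 and 484 NEU in callus. LHCB3, an antenna protein of photosystem II, was at 306 and 14.6 NEU on the root arrays. Leaf RNA on the first root array was not tested for. When the root arrays were left out, 29 of the 37 were called lower and 1 higher, and the same fit called 43.8% of all probes and 20.1% lower. With the 4 inflorescence and leaf arrays alone the counts were 33 lower and 1 higher, when 42.1% of all probes were called and 20.1% lower.

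The widest differences on the list were those of antenna proteins. LHCB1.1, named CAB2 in the gene table, was saturated on both leaf arrays, and its level of 127 and 84.6 NEU in inflorescence was at least 18.2-fold below the 1757 and 2024 NEU in leaf (adjusted p = 0.0746, and 0.00464 without the root arrays). LHCB1 genes are near-identical copies, and their probes may share signal. LHCB4.2 was at 196 and 208 NEU in inflorescence, against 1130.2 and 884 NEU in leaf, and LHCA1 at 243 and 228 NEU in inflorescence, against 1335 and 1252 NEU in leaf. LHCB2.2 was called lower, at 10.7 and 16.9 NEU in inflorescence, against 61.2 and 80.997 NEU in leaf. LHCB4.3, a rarer form of the CP29 antenna protein, was the only member called higher, at 426 and 494 NEU in inflorescence, against 78.04 and 67.4 NEU in leaf (6.33-fold, adjusted p = 0.0358), and its call was lost without any 1 of the 4 arrays (adjusted p = 0.096 to 0.148). PSBS, the sensor of excess light, was at 586 and 652 NEU in inflorescence, against 702 and 725 NEU in leaf, a difference of -0.21. Across the list 12 probes were saturated on both leaf arrays, and 2 of these, PSBR and PSBW, also on both inflorescence arrays.

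**Figure D4:**
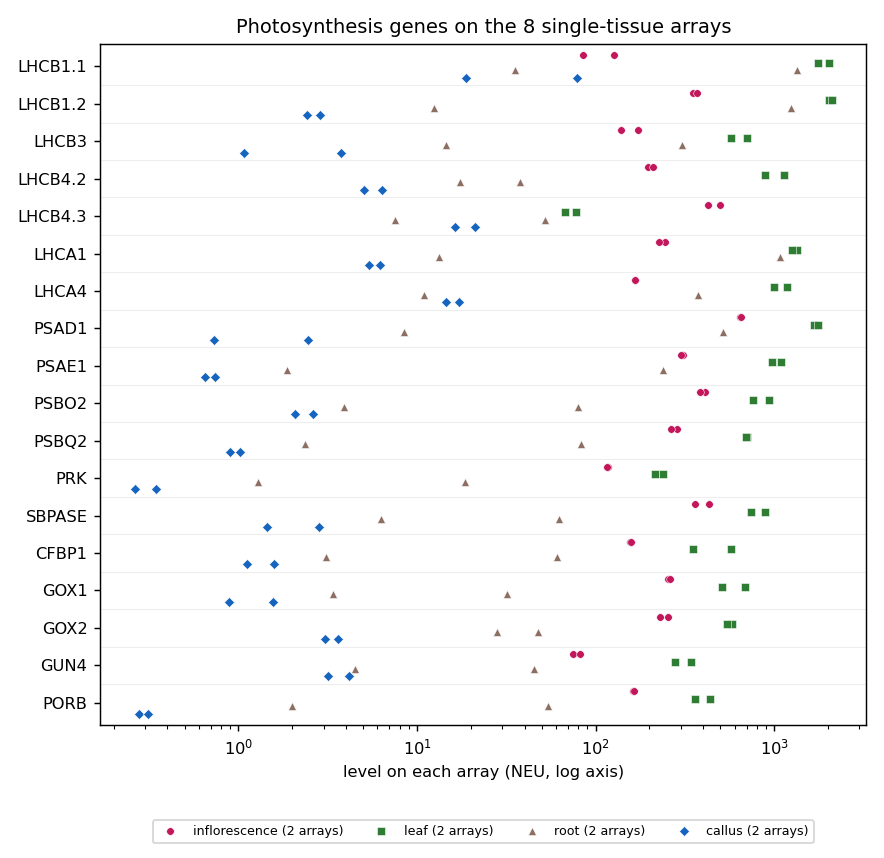
Levels (horizontal axis, NEU, log scale) of 18 photosynthesis genes, listed down the vertical axis, on each of the 2 inflorescence, 2 leaf, 2 root and 2 callus arrays. The genes were chosen after their values were seen. Leaf lies above inflorescence for each gene shown but LHCB4.3, and root replicate 1 lies above root replicate 2.

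The carbon-fixing enzymes had a median difference of -0.80. Their overlap is read against the 75.1% of all probes without overlap, in either direction. All 17 tested Calvin cycle genes had leaf arrays above inflorescence arrays, with 1 called lower on 8 arrays (lost without either inflorescence array or leaf replicate 2), 10 without the root arrays and 11 on 4 arrays. SBPASE was at 358 and 431 NEU in inflorescence, against 746 and 883 NEU in leaf, and RPE at 234 and 229.8 NEU in inflorescence, against 655 and 616 NEU in leaf. RBCS1A and RBCS3B, small subunits of Rubisco, were saturated on all 4 arrays, and no fold could be given. The photorespiration list had 4 of 12 (33.3%) called lower, against 17.7% over all probes. Among them were GOX2 at 229 and 253 NEU in inflorescence, against 582 and 541 NEU in leaf, and the catalase CAT2 at 154 and 128 NEU in inflorescence, against 364 and 274 NEU in leaf. For chlorophyll synthesis 2 of 11 (18.2%) were called lower, near the 17.7% over all probes. CHLG was at 76.4 and 89.4 NEU in inflorescence, against 148 and 158 NEU in leaf. CAO was at 43.04 and 45.5 NEU in inflorescence, against 94.2 and 85.2 NEU in leaf. The calls of GOX2, CAT2, CHLG and CAO were each lost without at least 1 of the inflorescence arrays, and that of CAO without any 1 of the 4 arrays (adjusted p = 0.056 to 0.0948). Of the 4 photorespiration calls, 1 was kept without inflorescence replicate 1 and all were lost without replicate 2. Without the root arrays the lower calls were 8 of 12 and 7 of 11.

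The 12 lowest differences, taken by the same rule, included genes of defense and of glucosinolate synthesis. GRP9, a glycine-rich protein, was at 1.82 and 1.46 NEU in inflorescence, against 220.2 and 182 NEU in leaf (123-fold lower in inflorescence, -6.94 ± 0.18), and PYK10 was 109-fold lower. GSTF2, a glutathione transferase, was at 3.76 and 3.71 NEU in inflorescence, against 425 and 325 NEU in leaf, and PR4, a hevein-like defense protein, at 3.47 and 3.41 NEU in inflorescence, against 310.4 and 297 NEU in leaf. BT2, a scaffold protein that responds to nitrate and sugar, was at 11.6 and 6.53 NEU in inflorescence, against 925 and 639.9 NEU in leaf. FSD1, the iron superoxide dismutase, was at 9.61 and 10.8 NEU in inflorescence, against 517 and 506 NEU in leaf (50.3-fold lower). DR4, a protease inhibitor, was at 2.53 and 2.496 NEU in inflorescence, against 162 and 137 NEU in leaf, and was at 653 and 1043 NEU in root. AT1G49500, of unknown function, AT1G66100, a thionin, and AT2G39400, a phospholipase, completed the 12 with differences of -6.43, -5.60 and -5.49. These 12 were also taken from called probes, and their limma adjusted p-values ranged from 1.73e-05 to 0.000167. Of the 12, only AT1G66100 was under 3 NEU in both root and callus.

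Glucosinolate genes, which make and cleave the mustard oil precursors of the crucifers, were mostly lower in inflorescence. Of 20 tested, 14 were called lower and 1 higher, with a median of -1.79. The chain-elongation enzymes MAM1 and BCAT4 were at 4.42 and 3.67 NEU in inflorescence, against 246 and 192 NEU in leaf, and at 2.6996 and 2.82 NEU in inflorescence, against 192 and 134 NEU in leaf, which is 54.1-fold and 58.01-fold lower. CYP83A1, which acts on the methionine-derived branch, was at 12.5 and 11.96 NEU in inflorescence, against 125 and 113 NEU in leaf. CYP79B2 and CYP83B1, which act on the tryptophan-derived branch, were lower by smaller factors, at 23.9 and 23.9 NEU in inflorescence, against 78.99 and 91.1 NEU in leaf, and at 32.6 and 30.9 NEU in inflorescence, against 118 and 96.98 NEU in leaf. MYB28 and MYB29, the activators of the methionine-derived branch, were at 4.72 and 5.08 NEU in inflorescence, against 19.1 and 16.8 NEU in leaf, and at 5.37 and 4.03 NEU in inflorescence, against 35.02 and 26.6 NEU in leaf.

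Genes of glucosinolate breakdown differed among themselves in direction. TGG2, a myrosinase that cleaves them, was the list's called increase, at 870.1 and 863 NEU in inflorescence, against 204 and 249 NEU in leaf (3.84-fold, adjusted p = 0.0382), lost without any 1 of the 4 arrays (adjusted p = 0.0967 to 0.142). TGG1, the second myrosinase, was at 689 and 683 NEU in inflorescence, against 719.7 and 564 NEU in leaf, with overlapping arrays. ESP and ESM1, which steer the products of breakdown, were at 180.2 and 176 NEU in inflorescence, against 52.8 and 54.3 NEU in leaf, and at 135 and 143 NEU in inflorescence, against 746 and 759 NEU in leaf. Neither was called (adjusted p = 0.215 and 0.0536). Without the root arrays the adjusted p-values were 0.000912 and 0.0119.

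Defense genes of the salicylic acid pathway were lower or not called. Of 11 tested, 5 (45.5%) were called lower, against 17.7% over all probes. Without the root arrays 7 were called lower (63.6%), against 20.1% over all probes. PR2, a glucanase induced by pathogens and named BGL2 in the gene table, was at 1.88 and 2.45 NEU in inflorescence, against 29.7 and 25.1 NEU in leaf (12.7-fold lower). PAD4 and ICS1, a regulator and a biosynthetic enzyme of salicylic acid signaling, were at 13.3 and 15.9 NEU in inflorescence, against 31.6 and 27.2 NEU in leaf, and at 2.18 and 2.28 NEU in inflorescence, against 6.68 and 6.21 NEU in leaf. PR1 was not called, at 4.57 and 2.73 NEU in inflorescence, against 13.2 and 6.62 NEU in leaf. In callus PAD4 was at 501 and 472 NEU and ICS1 at 173 and 157 NEU, both above leaf and inflorescence, while PR2 was at 2.42 and 1.01 NEU. Without inflorescence replicate 1 or 2 the lower calls were 3 and 3.

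**Figure D5:**
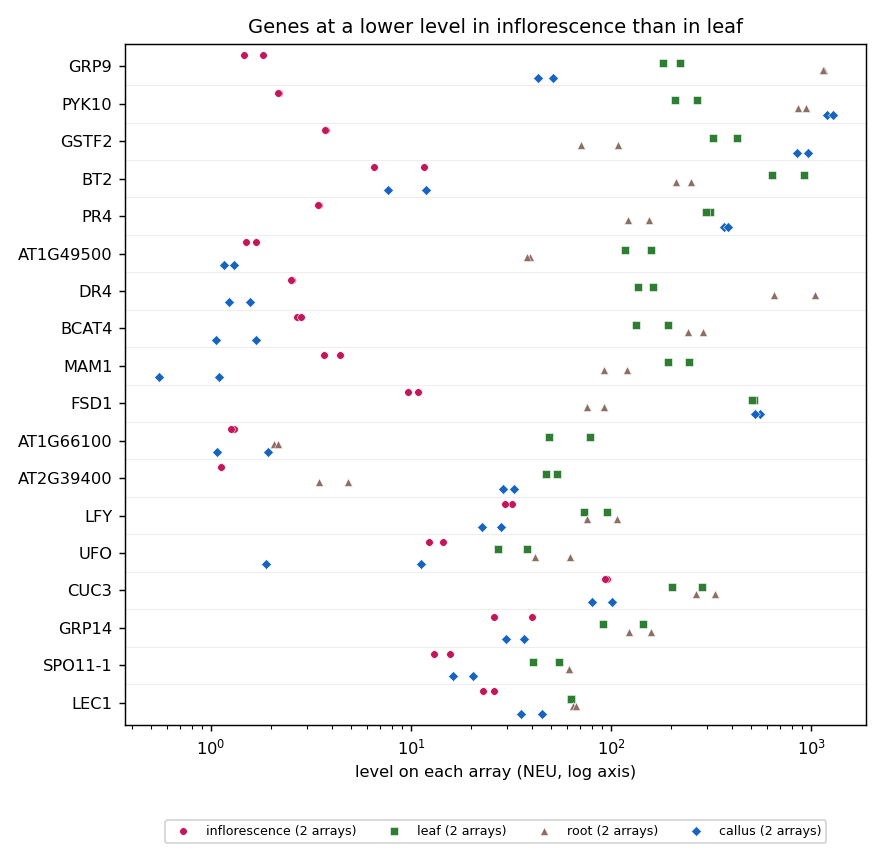
Levels (horizontal axis, NEU, log scale) of the 12 lowest genes and of 6 others chosen after their values were seen, listed down the vertical axis, on each of the 2 inflorescence, 2 leaf, 2 root and 2 callus arrays. The 12 lie under 12 NEU in inflorescence, and 11 of them are higher in root than in inflorescence by over 2-fold.

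Families of regulators were read against the 22.3% higher and 17.7% lower calls over all probes. Of 66 tested WRKY factors, 6 (9.09%) were called higher and 18 (27.3%) lower (median -0.59), with WRKY25 at 3.23 and 3.29 NEU in inflorescence, against 26.1 and 23.6 NEU in leaf. MYB factors had 22 higher (13.3%) and 34 lower (20.6%) calls of 165 tested, with lower calls of 20, 14 and 21 without inflorescence replicate 1, inflorescence replicate 2 and leaf replicate 2. MYB51, an activator of tryptophan-derived glucosinolates, was at 2.59 and 2.29 NEU in inflorescence, against 18.99 and 19.5 NEU in leaf, while AT3G27812, described as a MYB factor and the neighbor of MYB21 by locus number, was at 157 and 183 NEU in inflorescence, against 2.95 and 1.697 NEU in leaf. The MADS-box descriptions had 11 higher (12.6%) and 15 lower (17.2%) of 87 tested, the lower share being close to that over all probes, and without inflorescence replicate 1 or 2 the lower calls were 9 and 5 and the higher calls 7 and 7. The medians of MYB and MADS-box genes were -0.42 and -0.56, and -0.22 and -0.16 after normexp background correction. Heat shock proteins had 11 higher (16.7%) and 14 lower (21.2%) of 66 tested, shares near those over all probes. Without inflorescence replicate 1 or 2 they had 7 and 7 higher and 9 and 6 lower calls, and 8 lower without leaf replicate 1. HSFA7A, a heat shock factor, was at 10.1 and 18.9 NEU in inflorescence, against 56.9 and 84.2 NEU in leaf, and MTHSC70-2, a mitochondrial chaperone, at 44.6 and 51.4 NEU in inflorescence, against 13.05 and 9.87 NEU in leaf. HSP21 was uneven, at 0.231 and 4.81 NEU in inflorescence, against 22.7 and 18.5 NEU in leaf, and its call was lost without either leaf array (adjusted p = 0.0978 to 0.109).

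A share of the lower calls had 1 order of tissues. Of the 2448 probes called over 2-fold lower in inflorescence, 987 (40.3%) were also more than 2-fold higher in both leaf and root than in both inflorescence and callus on the tissue means. This order by its definition needs leaf over 2-fold above inflorescence, so its share among these calls is raised by the rule. Over all tested probes it was found for 1243, and the reverse order, with inflorescence and callus above leaf and root, for 252. Inflorescence and leaf lay above root and callus for 1121, and root and callus above for 463. Inflorescence and root lay above leaf and callus for 213, and leaf and callus above for 119. Among the 2602 probes over 2-fold higher, 236 (9.07%) had the reverse order. LFY, CUC3, GRP14, SPO11-1, SDS, SVP, MAM1, BCAT4, CYP83A1, MYB29, BT2, GRP9, DR4 and PR2 had the first order, and 7 of the 14 lower calls on the glucosinolate list had it. The image extraction of the leaf and root arrays was run on the same day, and that of the inflorescence and callus arrays on another day. Tissue and this day cannot be told apart for those 4 tissues.

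Faint probes also leaned toward leaf. Under 5 NEU, 4212 probes had a median difference of -0.39 with 370 higher and 753 lower calls, against medians of 0.06, 0.16 and 0.09 at 5 to 20, 20 to 100 and over 100 NEU. After normexp background correction, loess and quantile normalization, the median of the faint probes was -0.08. Differences of faint genes such as DFR, LDOX, BAN, FD and SVP lie in this range.

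Markers of root and of maturing seed were given as checks on other organs. Lower calls made up 45.5% of the tested root markers and 27.3% of the tested seed markers, against 17.7% over all probes. Of 11 root markers tested, 5 were called lower (3, 2 and 3 without inflorescence replicate 1, inflorescence replicate 2 and leaf replicate 2) and 1 higher in inflorescence, and their summed levels were 179.6 and 150.1 NEU in inflorescence, 554 and 636 NEU in leaf and 1714 and 1725 NEU in root. COBL9, a gene of root hairs named SHV2 in the gene table, was the marker called higher, at 38.2 and 37.8 NEU in inflorescence, against 6.998 and 13.6 NEU in leaf, a call lost without either inflorescence array or leaf replicate 1 (adjusted p = 0.0526 to 0.0687). Seed markers summed to 81.7 and 69.05 NEU in inflorescence, against 130.1 and 146 NEU in leaf, and the storage protein CRA1 was under 4 NEU on all 4 arrays. Of the 11 seed markers tested, 3 were called lower and the others were not called, and 1 was called lower without inflorescence replicate 2.

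A few probes were measured in 1 tissue only. AGP40, an arabinogalactan protein, was not well above background in any channel of the leaf arrays. It was at 13.3 and 15.2 NEU in inflorescence, against 0.137 and 0.171 NEU in leaf. Against the lowest signal that stood well above background, it was at least 34.6-fold higher in inflorescence. In all, 7 probes were of this kind for inflorescence, and 5 were of the opposite kind, with NAC023 at least 3.61-fold higher in leaf. AGP40 and NAC023 were called by limma on their measured signals rather than on these bounds. As they were picked for this difference, the calls give no separate support. The call of NAC023 was lost without inflorescence replicate 2 (adjusted p = 0.053). At the bright end UBQ11, a polyubiquitin, and AT5G60390, an elongation factor, were at 1826 and 1279.9 NEU in inflorescence, against 1427 and 1901 NEU in leaf, and at 1810.2 and 1279.8 NEU in inflorescence, against 1320.1 and 1781 NEU in leaf, with at least 1 tissue saturated on both arrays.

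The same 2 RNA samples were also hybridized on 2-tissue arrays, whose green channel held inflorescence RNA beside silique on 2 arrays and leaf RNA beside root on 2 others. Of 20819 probes tested there, 13221 (63.5%) were called, 4932 (23.7%) higher and 8289 (39.8%) lower in inflorescence, around a median of -0.36. The inflorescence arrays of this set were dimmer, with 91.6% and 90.2% of probes well above background in green and a median raw signal of 8.11 and 5.75 times background. In this set the inflorescence arrays were extracted with software A.7.1.1 and the leaf arrays with A.6.1.1. Array type, software version, extraction day and tissue cannot be told apart there. As both sets carry the same RNA, their values are given side by side only. SEP3 had 6.27 ± 0.28 on the 2-tissue arrays and 6.00 ± 0.27 on the single-tissue arrays. CAL was not called on the 2-tissue arrays, at 9.54 and 6.31 NEU in inflorescence, against 9.02 and 8.97 NEU in leaf, with a difference of -0.21 ± 0.24 there (adjusted p = 0.476) and 2.47 ± 0.20 on the single-tissue arrays. CRC was not called there either, with 0.14 ± 0.19 (adjusted p = 0.542) beside 0.83 ± 0.19. EXL4 had 9.96 ± 0.15, with 8.15 ± 0.39 on the single-tissue arrays, and AMS 5.98 ± 0.38, with 4.96 ± 0.88. For PYK10 the values were -9.11 ± 0.16 and -6.76 ± 0.16, for BT2 -7.20 ± 0.25 and -6.47 ± 0.35, and for FSD1 -6.12 ± 0.10 and -5.65 ± 0.15.

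LFY was at 3.75 and 4.42 NEU in inflorescence, against 63.5 and 65.7 NEU in leaf in that green channel, a difference of -3.99 ± 0.14, and UFO had -3.65 ± 0.19 there and -1.27 ± 0.75 on the single-tissue arrays. CUC3 had -3.92 ± 0.12 there and -1.34 ± 0.22 on the single-tissue arrays, and RAT5, an H2A histone, -6.35 ± 0.22 and -1.45 ± 0.21. These genes had wider differences on the 2-tissue arrays than on the single-tissue arrays, and the reason was not tested. The negative overall median of the 2-tissue arrays was that of faint probes. By level it was -1.12 under 5 NEU, -0.42 at 5 to 20, 0.02 at 20 to 100 and 0.09 over 100 NEU. The light-harvesting and photosystem list had 33 lower and 1 higher calls of 39 tested there, and the floral list 13 higher and 3 lower of 21. The tapetum list had 19 higher and 2 lower of 24, and cell division genes 21 higher and 2 lower of 30.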

How the data were processed

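Total RNA was labeled with Cy3 and Cy5 and hybridized to Agilent Arabidopsis oligonucleotide arrays. The authors deposited scanner output from Agilent Feature Extraction, version 8.1 in the submitters' notes and A.6.1.1 or A.7.1.1 in the file headers. The intensity columns used, the green and red processed signals, had been background-subtracted and dye-normalized before the files were deposited. Their series-matrix log ratios were not used here, and the genome build of the array design was not given in the sources used here.

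Control features were removed, both channels of an array were averaged, the result was divided by its sum over 21500 gene probes and multiplied by 1e+06 (NEU), and log2 was taken. Probes with an outlier flag on any of the 8 single-tissue arrays (1828) were left out. Means of 4 tissues were fitted with limma 3.58.1 in R 4.3.3 (lmFit and eBayes with trend), and p-values were adjusted by Benjamini-Hochberg over all 19672 probes. A call needed an adjusted p under 0.05. The script was tested on simulated data from this comparison with 19672 probes, 200 of them changed. There 46% of changes of 2 on the log2 scale were called, with 1 false call. For changes of 1, -1 and 0.5 the shares called were 6%, 2% and 0%. Far fewer probes changed in the simulation than were called in the data, which makes its adjusted threshold stricter. Its shares therefore do not give the recovery in this comparison. Gene symbols came from the TAIR10.1 table of RefSeq, which held 21191 of the 21500 names. Figures were drawn in Python 3.11.15 with matplotlib 3.10.9.

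Members and lists were chosen with earlier results of these data known. Named genes were the 12 highest and 12 lowest called probes that were well above background, unsaturated and without overlap between the arrays of the tissues, the floral list, up to 3 called genes per direction in each other list, the 5 largest bounded folds per direction and the 5 brightest probes per tissue. Other list members were named after their values were seen, and 2 list members are not reported here by name. A bounded fold sets the tissue measured against the lowest signal well above background in the other, or against a saturated signal at its value. The number of arrays limits the precision. Alternatives covered scaling, background correction, channels, filters, pseudocount, arrays fitted, blocks and single arrays left out.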

Additional observations from a re-analysis of the deposited data

How the results depend on the processing

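Leaving out 1 array at a time gave 3715 to 6964 called probes, against 7871 on all arrays. The lowest count was without inflorescence replicate 2, and without inflorescence replicate 1 it was 4729. Higher calls ranged over 2104 to 3949, lower calls over 1611 to 3015, and calls over 2-fold over 3381 to 5181. In these fits the lone array of a tissue was assumed to vary like the other tissues. The other settings stayed within 1.5 times the count, from 6136 with slide series as a fixed block to 8625 without the root arrays. With outlier spots set to missing, an alternative chosen after seeing the data, 8300 of 21472 probes were called. The share of higher among called probes was 55.7%, and 52.1% after scaling to the 75th percentile. On the 2-tissue arrays 13330 probes were called after scaling to the 75th percentile, against 13221.

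Replicate letters showed little pairing of the samples. Deviations of the inflorescence and leaf arrays of the same letter correlated at 0.073. Over all pairs of tissues the values lay between -0.19 (callus and inflorescence) and 0.17 (leaf and root). The fit with the letter as a replicate block called 7960 probes. Slide series was inferred from the leading digits of the slide barcodes in the file headers, as no label names it. Both inflorescence arrays, leaf replicate 1 and callus fell in 1 series, and leaf replicate 2 and root in another. The value within the first series is that without leaf replicate 2, 6182 called probes. Slide series as a random block gave 7629.

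Of 196 named genes with a test, 177 were called, and 129 kept their call in every one of the 21 settings that could be fitted for them. AP2, which was not called (0.17), was at -0.0049 with slide series as a fixed block, and between -0.0049 (without leaf replicate 2) and 0.35 with single arrays left out. None of the called genes changed sign, and calls were lost most often without an inflorescence array (44 without replicate 2, 37 without replicate 1). The comparison on Affymetrix arrays was not run, as probe sets were not paired with genes here. Signal limits the bright and faint ends: saturated probes have only bounded folds, and standard errors were 0.39 at the median under 5 NEU, against 0.21 over 100 NEU.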
